A study of Zea mays with 12 samples.

Results

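Nkd1 (GRMZM2G129261) and Nkd2 (GRMZM5G884137) are the duplicate maize genes that are mutated in the naked endosperm mutant, nkd. They were taken by these identifiers, and they are 2 of the 39656 genes and 5 of the 63540 annotated transcripts in the deposited tables, 3 transcripts of Nkd1 and 2 of Nkd2. The RNA came from kernels of the inbred line B73, the wild type, and of nkd plants backcrossed to B73. Kernels were harvested 15 days after pollination, and aleurone and starchy endosperm cells were cut from paraffin sections by laser capture. Both genotypes were sampled in both cell types, which gives 4 groups of 3 biological replicates, and each of 3 flow cells carried 1 replicate of every group. No treatment and no transgene is named. The sources used here name neither the alleles at the loci nor the number of kernels behind a library, and p-values measure the spread between libraries.

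Both genes encode transcription factors of the INDETERMINATE domain (IDD) family, a plant family whose members bind DNA through a conserved set of zinc fingers and which is named after the maize flowering regulator id1. The aleurone is the outermost layer of the endosperm and secretes enzymes that mobilise reserves at germination, while the starchy endosperm beneath it fills with starch and with zein storage proteins. Kernels that lack the function of both Nkd genes form extra outer cell layers that only partly take on aleurone character.

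The libraries held between 9570998 and 64000784 reads over 1 transcript per gene. Values are given either as normalised reads, which the authors scaled separately for each cell type, or in CPM, counts scaled here to a common library size. The lowest count behind any value of Nkd1 was 1428 reads and of Nkd2 417 reads. The labelled cell types were checked against 6 aleurone markers, whose summed level was 4908 to 11971 CPM in aleurone libraries and 224 to 2179 in starchy endosperm libraries. Among them the anthocyanin regulator c1 was at 0 in every group but B73 starchy endosperm. The markers cr4 and sal1 differed little between the tissues in B73. Starchy endosperm minus aleurone was 0.12 and -0.14 on the log2 scale (edgeR quasi-likelihood test, adjusted p = 0.925 and 0.875). In nkd it was -1.51 and -0.23 (edgeR, adjusted p = 0.0731 and 0.762). The sum therefore does not show that each marker separated the tissues. The highest sum in starchy endosperm, 2179, was that of B73 replicate 2, against 561 and 915 in replicates 1 and 3 of that group. The values of Nkd1 and Nkd2 in starchy endosperm are also given without this library. The 27 starchy endosperm markers, zeins and genes of starch and sucrose metabolism, summed to 117426 to 310311 CPM in B73 aleurone and 796 to 5795 in nkd aleurone, and to 307689 to 728199 in B73 and 24931 to 95717 in nkd starchy endosperm. The part of this marker difference in the results on Nkd1 and Nkd2 was not tested. Markers of the basal transfer layer, the embryo, the embryo surrounding region and maternal tissue each summed to at most 358 CPM in any library. The highest sums were those of the basal transfer layer in nkd replicate 3, 204 CPM in aleurone and 358 in starchy endosperm. In every other library the basal transfer layer sum was at most 33.1 CPM. The part of these markers in the results was not tested. In captured tissue, fewer cells of a type and less RNA per cell cannot be told apart.

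The transcripts annotated for each gene carried almost the same counts. The 2 transcripts of Nkd2 had identical reads in all 12 libraries. The 3 transcripts of Nkd1 differed in 4 of 12 libraries, by at most 2 reads. These counts do not tell the transcripts of a gene apart, and 1 transcript represents each gene below.

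Reads of Nkd2 were reduced in nkd aleurone and were still counted in every mutant library. In B73 aleurone, replicates 1, 2 and 3 held 2725, 2751 and 2091 normalised reads of Nkd2. In nkd aleurone they held 755, 549 and 463 normalised reads. The groups were far apart, and the highest mutant library lay well below the lowest wild type library. The mean fell from 2522 ± 374 to 589 ± 150 (SD, n = 3). Taken from the log2 difference, nkd held 23.1% of the B73 level, with a 95% interval of 14.2% to 37.4%. On the log2 scale Nkd2 changed by -2.11 ± 0.31 (SE; limma with Benjamini-Hochberg adjustment over all genes, adjusted p = 0.00259). Of 26496 genes tested in aleurone, 8.28% were called lower in nkd, and 7.56% had a more negative log2 difference than Nkd2. Within flow cells 1, 2 and 3 the log2 difference of Nkd2 was -1.85, -2.32 and -2.17.

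Nkd1 transcripts were lower in each mutant aleurone library than in any wild type one, without passing the test. B73 aleurone replicates 1, 2 and 3 held 5992, 5411 and 6911 normalised reads of Nkd1. The nkd aleurone replicates held 4632, 3979 and 3578. The ranges did not overlap, and the lowest wild type library stood only slightly above the highest mutant library. The mutant level was 66.5% of that in B73, with a 95% interval of 42.6% to 104%. The log2 difference was -0.59 ± 0.29 (SE; limma, adjusted p = 0.212) and was not called. In the same fit 27.1% of all genes had a more negative difference, and 16.8% of genes had every mutant library under the lowest wild type one, as Nkd1 did. Within flow cells 1, 2 and 3 the log2 difference was -0.37, -0.44 and -0.95.

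**Figure D1:**
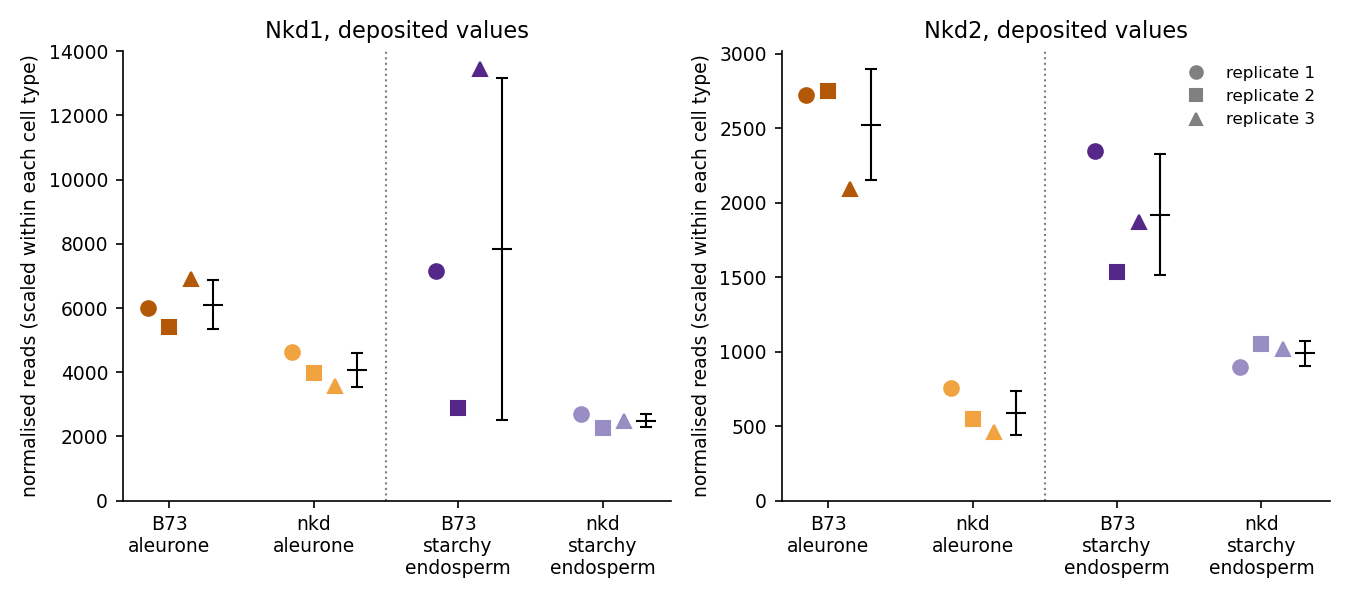
Normalised reads of Nkd1 and Nkd2 (vertical axes, from 0) in the 12 libraries, with groups along the horizontal axis, 1 symbol per replicate and black bars for the mean ± SD of 3 libraries; values left and right of the dotted line were scaled separately. Mutant libraries lie below wild type libraries on either side of the line in both panels, and B73 starchy endosperm replicate 3 holds 13456 reads of Nkd1 against 2880 in replicate 2.

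In starchy endosperm the mutant libraries again held less of both transcripts, but wild type libraries varied widely in Nkd1. B73 starchy endosperm replicates 1, 2 and 3 held 7168, 2880 and 13456 normalised reads of Nkd1. The nkd replicates held 2689, 2276 and 2497. Mutant values were close to each other, and the lowest wild type value, of replicate 2, was just above them. The SD of log2 values of Nkd1 was 1.12 in B73 starchy endosperm, where the median over 23940 genes was 0.834, and 0.121 in nkd starchy endosperm, where the median was 0.626. In that wild type group 37.2% of genes had a larger SD than Nkd1, while in the other groups 87.5% to 96.8% of genes did. Replicate 2, with the lowest Nkd1, also had the lowest sum of starchy endosperm markers, at 307689 CPM against 671887 and 728199 in replicates 1 and 3, and the highest sum of aleurone markers. Their part in the spread of Nkd1 was not tested.

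The genotype difference of Nkd1 in starchy endosperm was -1.39 ± 0.50 on the log2 scale (SE; limma, adjusted p = 0.22), with a 95% interval for the mutant level of 17.6% to 82.1% of B73. It did not pass the test with the 6 libraries of this tissue. It passed in a fit over all 12 libraries (edgeR quasi-likelihood test, log2 difference -1.57, adjusted p = 0.0483), where the groups share an estimate of the spread and 4.56% of genes were called. The difference was -1.98 without B73 replicate 2 and -0.87 without B73 replicate 3 (limma, adjusted p = 0.0657 and 0.417). Within flow cells 1, 2 and 3 it was -1.41, -0.34 and -2.43.

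Nkd2 was more even among the wild type starchy endosperm libraries. Replicates 1, 2 and 3 of B73 held 2345, 1537 and 1869 normalised reads of Nkd2. Those of nkd held 896, 1053 and 1017. The groups did not overlap, and the mutant libraries stood close together at 52.2% of the B73 level (95% interval 31.2% to 87.5%). The log2 difference was -0.94 ± 0.34 (SE; limma, adjusted p = 0.22) and was not called. Of 24582 genes tested in this tissue 1.31% were called lower in nkd, and 10% had every mutant library under the lowest wild type one. Without B73 replicate 2 the difference of Nkd2 was -1.09 (limma, adjusted p = 0.21). Within flow cells 1, 2 and 3 the difference of Nkd2 was -1.39, -0.55 and -0.88.

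Averaged over both cell types, the reduction passed the test for each copy. In an edgeR quasi-likelihood fit of the reads of all 12 libraries, the mean of the genotype differences in aleurone and starchy endosperm was -1.53 ± 0.22 (SE) for Nkd2 (adjusted p = 0.00049), which is 2.89-fold lower. For Nkd1 it was -1.10 ± 0.29 (SE; edgeR, adjusted p = 0.0213), which is 2.15-fold lower. Of 25499 genes 8.84% were called lower in this comparison. Of the 23940 genes tested in both tissues, 5.61% had no overlap with nkd lower in each of them, as Nkd1 and Nkd2 did. The Nkd2 call held with any 1 library left out (edgeR, highest adjusted p = 0.00251). The Nkd1 call was lost without B73 aleurone replicate 3 (adjusted p = 0.0587), without nkd aleurone replicate 2 (0.0548) and without nkd aleurone replicate 3 (0.0552). The Nkd1 call also rests on 1 estimate of the spread for all groups. The SD of log2 values of Nkd1 was 1.12 in B73 starchy endosperm and 0.121 to 0.187 in the other groups. A fit with a separate spread for each group was not run.

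Levels in the cell types were compared on the common scale, which rests on the TMM factors. These factors differ between libraries, and differences between tissues depend on them. Nkd2 had its lowest level in nkd aleurone, at 17.5, 13.0 and 10.9 CPM in replicates 1, 2 and 3. In nkd starchy endosperm it had 42.5, 51.5 and 46.6 CPM. No library of the former group came near the latter. The difference was 3.39-fold (log2 difference 1.76 ± 0.31, edgeR quasi-likelihood test, adjusted p = 0.00675), and 3.54% of 25499 genes were called higher in starchy endosperm than in aleurone of nkd. Within flow cells 1, 2 and 3 it was 1.28, 1.99 and 2.09 on the log2 scale.

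In the wild type the difference of Nkd2 between the cell types was not called. B73 aleurone replicates 1, 2 and 3 had 67.0, 65.6 and 50.8 CPM of Nkd2. B73 starchy endosperm had 110, 76.7 and 79.1. The log2 difference, starchy endosperm minus aleurone, was 0.54 ± 0.30 (edgeR, adjusted p = 0.383). It was 0.63 without B73 starchy endosperm replicate 2 (edgeR, adjusted p = 0.286). In this comparison edgeR called 0 of 25499 genes (0%), 4196 (16.5%) had an unadjusted p under 0.05, and DESeq2 called 1384. The order of the Nkd2 group means was, from the lowest, nkd aleurone at 13.8 ± 3.36, nkd starchy endosperm at 46.9 ± 4.53, B73 aleurone at 61.1 ± 8.93 and B73 starchy endosperm at 88.7 ± 18.7 CPM (SD, n = 3). The ranges of nkd starchy endosperm and B73 aleurone overlapped.

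Nkd1 had the same order of groups with other distances between them. In aleurone its group means were 95.4 ± 11.5 CPM in nkd and 148 ± 19.6 in B73 (SD, n = 3). In starchy endosperm they were 118 ± 8.51 CPM in nkd and 350 ± 213 in B73. The B73 groups overlapped, since B73 starchy endosperm replicate 2 had 144 CPM and replicates 1 and 3 had 337 and 569. The difference between the cell types was 1.24 ± 0.41 on the log2 scale in B73 (edgeR quasi-likelihood test, adjusted p = 0.194), and of the alternatives run it passed in 1, without B73 starchy endosperm replicate 2, at 1.60 (adjusted p = 0.0427). Without B73 starchy endosperm replicate 3 it was 0.69. In nkd it was 0.30 ± 0.41 (edgeR, adjusted p = 0.722). The aleurone replicates of nkd had 107, 94.3 and 84.5 CPM of Nkd1 and its starchy endosperm replicates 127, 111 and 114.

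**Figure D2:**
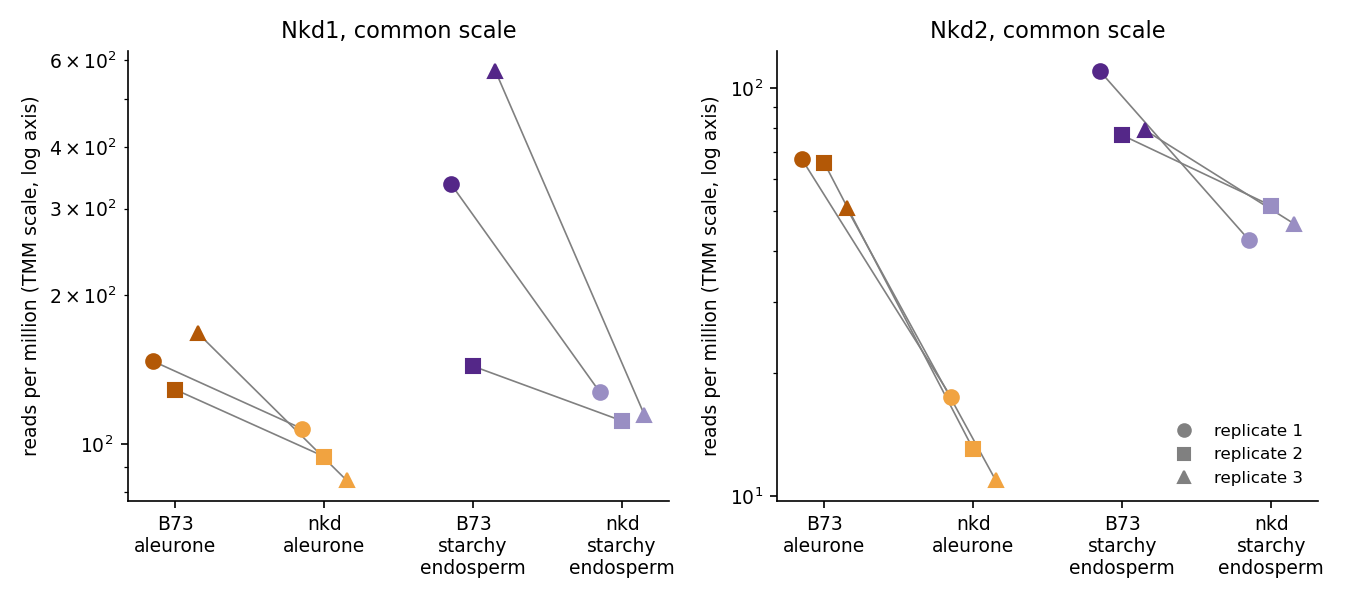
CPM of Nkd1 and Nkd2 on a scale common to the 12 libraries (vertical log axes), with groups along the horizontal axis, 1 symbol per replicate and grey lines joining B73 and nkd libraries of the same flow cell. All 12 lines fall from B73 to nkd; for Nkd2 nkd aleurone (10.9 to 17.5) lies apart from nkd starchy endosperm (42.5 to 51.5).

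The genotype difference of each copy was then compared between the tissues. For Nkd2 the difference was 1.23 ± 0.43 less negative on the log2 scale in starchy endosperm than in aleurone (edgeR interaction test, unadjusted p = 0.0125, adjusted p = 0.514). For Nkd1 it was more negative in starchy endosperm, by -0.94 ± 0.57 (edgeR, adjusted p = 0.723). Neither passed the test. In this comparison edgeR called 0 of 25499 genes (0%), 2030 (7.96%) had an unadjusted p under 0.05, and DESeq2 called 198.

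The balance between the copies was examined within each library, where scaling and depth cancel. A ratio of reads is not a ratio of transcript levels, because transcript lengths were not used here. A change of the ratio between groups does not depend on length if each copy has the same transcript structure in both. Whether the mutant transcripts have the wild type structure was not tested. How reads that match both copies were assigned is not known, and their part in the ratio was not tested. In B73 aleurone replicates 1, 2 and 3 there were 2.20, 1.97 and 3.30 reads of Nkd1 for each read of Nkd2. In nkd aleurone the ratio was 6.13, 7.25 and 7.72, above every B73 aleurone library. Of the reads of both copies, Nkd2 made up 31.3%, 33.7% and 23.2% in the wild type and 14.0%, 12.1% and 11.5% in the mutant.

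In starchy endosperm the ratio had no such separation. B73 replicates 1, 2 and 3 had ratios of 3.06, 1.87 and 7.20. The nkd replicates had 3.00, 2.16 and 2.46, within the B73 range. The wild type value of 7.20 came from replicate 3, the shallowest library, where Nkd2 made up 12.2% of the reads of both copies with an exact 95% binomial interval of 11.1% to 13.3%, which covers counting error only. Replicate 2 stood at the other end, with 34.8% (33.9% to 35.7%).

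In aleurone the log2 ratio was 1.28 ± 0.39 in B73 and 2.81 ± 0.17 in nkd (SD, n = 3), a difference of 1.53 or a 2.89-fold larger ratio (exact permutation test, two-sided, p = 0.1, the smallest that 3 against 3 libraries allow; 0.25 adjusted over 5 comparisons). It was higher in 3 of 3 mutant libraries. In starchy endosperm it was 1.79 ± 0.98 in B73 and 1.33 ± 0.24 in nkd (exact permutation test, p = 0.6, adjusted p = 0.7), where the difference of -0.46 became -0.90 without B73 replicate 2 and 0.072 without B73 replicate 3. Over both tissues, with genotype labels permuted within each, the difference was 0.54 (exact permutation test, p = 0.27, adjusted p = 0.45). Within nkd the log2 ratio in starchy endosperm minus that in aleurone was -1.48, again at the smallest p possible (exact permutation test, p = 0.1, adjusted p = 0.25). Within B73 the difference between the tissues was 0.51 (exact permutation test, p = 0.7, adjusted p = 0.7), with 0.95 without B73 starchy endosperm replicate 2 and -0.020 without replicate 3.

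**Figure D3:**
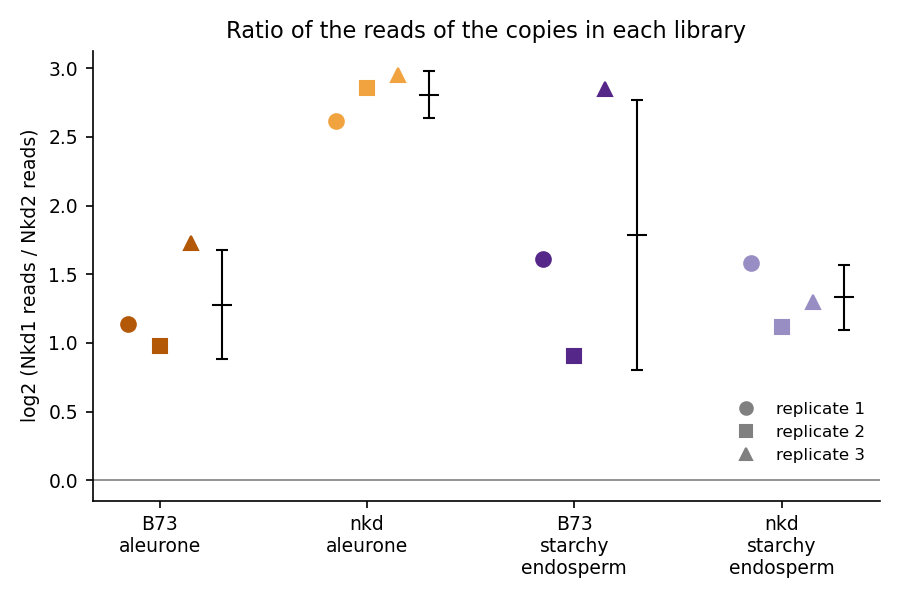
Log2 ratio of Nkd1 reads to Nkd2 reads (vertical axis) in each library by group, 1 symbol per replicate, with black bars for the mean ± SD of 3 libraries. The nkd aleurone libraries lie at 2.62 to 2.95 and the B73 aleurone libraries at 0.98 to 1.72; B73 starchy endosperm spreads from 0.91 to 2.85.

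The normalised reads of both copies were also summed. Replicates 1, 2 and 3 of B73 aleurone had sums of 8716, 8162 and 9002, those of nkd aleurone 5387, 4529 and 4041, and the mean in nkd was 53.9% of that in B73. In starchy endosperm the wild type sums were 9513, 4418 and 15325, the mutant sums 3586, 3328 and 3514, and the mean in nkd was 35.6% of that in B73. These percentages are ratios of arithmetic means, and the B73 mean in starchy endosperm is raised by the sum of 15325 in replicate 3. The percentages of each copy given above come from log2 differences, so they cannot be set directly beside those of the sums. The sums of the mutant libraries lay below those of the wild type in both tissues, and most of each sum was Nkd1.

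The only other IDD gene found by name was id1, which promotes flowering in maize and acts in leaves. It had 23 reads in all 3 B73 aleurone libraries together, 30 in nkd aleurone, 1 in B73 starchy endosperm and 5 in nkd starchy endosperm. Its log2 difference in aleurone was 0.49 (limma, adjusted p = 0.756), and it was too low to be tested in starchy endosperm.

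Regulators of aleurone cell fate were listed beside the Nkd genes, and 4 of 8 asked for were found by name, among them cr4 and sal1, which are also in the list of aleurone markers. In aleurone 1 of the 4 rose in nkd, 0 fell and 3 did not pass, with a median log2 difference of 0.25 against 0.04 over all genes; 6.32% of all genes were called higher. The gene that rose was cr4, a receptor-like kinase gene needed for aleurone fate, from 508 ± 102 to 1342 ± 277 normalised reads (limma, adjusted p = 0.017). This call was lost without B73 aleurone replicate 1 (adjusted p = 0.0769), B73 replicate 3 (0.0578) or nkd replicate 2 (0.0548), and in the fit over 12 libraries (edgeR, 0.116), where 5.86% of genes were called. The calpain gene dek1, which is required for aleurone to form, had 653 ± 52.3 and 619 ± 129 in B73 and nkd aleurone (limma; adjusted p = 0.875). The gene sal1, which restricts the aleurone to its normal layer, had 1603 ± 356 and 1318 ± 324 (limma, adjusted p = 0.614). The seed maturation regulator vp1 had 932 ± 394 and 1551 ± 887 (limma, adjusted p = 0.541).

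In starchy endosperm 0 of these 4 genes passed (limma; 1.78% of all genes were called), and the median log2 difference was -0.61 against 0.12 over all genes. The largest difference among them was that of vp1, at 209 ± 24.3 normalised reads in B73 and 16.8 ± 18.1 in nkd (log2 difference -4.41, limma, adjusted p = 0.0757). It passed in 4 of 10 other settings, with the replicate number as a block (adjusted p = 0.0393), in the fit over 12 libraries (edgeR, 0.0309), with DESeq2 (0.00279) and with a pseudocount of 8 (limma, 0.0422). It did not pass in the other 6, up to an adjusted p of 0.137 with edgeR on 6 libraries, nor in any of 6 fits with 1 library left out (limma, adjusted p = 0.0555 to 0.227). The log2 difference was -3.19 without nkd replicate 1 and -5.37 without nkd replicate 3. The gene dek1 had 344 ± 69.9 in B73 and 190 ± 15.1 in nkd (limma, adjusted p = 0.407).

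Regulators of storage product genes formed the other list, of which 7 of 13 names asked for were found. In aleurone 3 of 7 fell in nkd, 0 rose and 4 did not pass; their median log2 difference was 0.26 against 0.04 over all genes, while 8.28% of all genes were called lower. The genes that fell were pbf1, the prolamin-box binding factor (1075 ± 161 to 108 ± 29.3 normalised reads; limma, adjusted p = 0.000583), the Dof-type gene dof36 (3392 ± 944 to 824 ± 261; adjusted p = 0.00473) and o2, the bZIP activator of zein genes (15444 ± 4435 to 3084 ± 1721; adjusted p = 0.00687). The log2 difference of Nkd2 in the same fit, -2.11, stood beside -3.33 for pbf1, -2.05 for dof36 and -2.45 for o2.

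These regulators shared with Nkd2 a higher level in starchy endosperm than in aleurone of nkd. On the common scale the log2 difference in nkd was 3.16 for pbf1, 2.94 for dof36 and 2.63 for o2 (edgeR quasi-likelihood test, adjusted p = 0.00234, 0.00275 and 0.00643), against 1.76 for Nkd2, and 3.54% of all genes were called higher. In B73 the same difference was 1.35 for pbf1, 1.20 for dof36 and 1.11 for o2, also higher in starchy endosperm but not called (edgeR, adjusted p = 0.175, 0.193 and 0.235), against 0.54 for Nkd2. The gene vp1, a member of both lists, was lower in starchy endosperm (-5.50; edgeR, adjusted p = 0.00519), as were 3.51% of genes, and the other 3 of the 7 did not pass. The median of the 7 was -0.11 against 0 over all genes. In starchy endosperm 0 of the 7 passed between the genotypes (limma), where pbf1 had a log2 difference of -1.47 (adjusted p = 0.158; 0.0464 in the edgeR fit over 12 libraries; -1.92 without B73 replicate 2, adjusted p = 0.0795), o2 one of -0.93 (adjusted p = 0.273) and dof36 one of -0.29 (adjusted p = 0.784). The comparisons within and between tissues use the same nkd libraries. Starchy endosperm markers moved in the same direction as pbf1, dof36 and o2 in aleurone, with the summed levels given above, and their part was not tested.

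**Figure D4:**
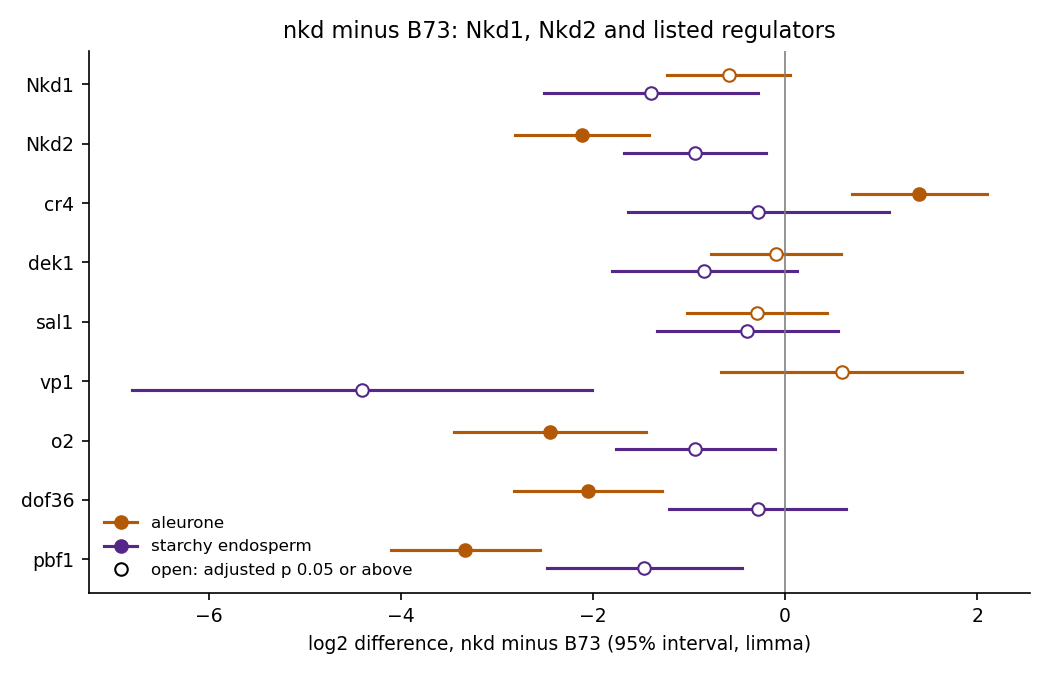
Log2 difference of normalised reads, nkd minus B73, with 95% intervals from limma (horizontal axis) for Nkd1, Nkd2 and 7 listed regulators, in aleurone and in starchy endosperm; filled symbols passed an adjusted p of 0.05. In aleurone Nkd2, o2, dof36 and pbf1 lie below 0 and cr4 above it, and no gene shown is filled in starchy endosperm.

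Genes with a name were then ranked by how closely their level followed each copy over the 12 libraries, as the root mean square difference of mean-centred log2 levels among 19300 genes with a mean of at least 50 reads. Of the named genes, nearest to Nkd1 were SR45_2, mTRF10, HK1b2 and the protein kinase gene SnRK2.8, at 0.284, 0.314, 0.318 and 0.337 log2 units. With genes without a name counted, their ranks were 3, 17, 18 and 25. The named genes nearest to Nkd2 were the tryptophan synthase gene TSA, CAPIP1, the gene named WAK-RLK2 and a gene listed as uaz98. They lay at 0.371, 0.409, 0.411 and 0.438, with ranks 10, 21, 22 and 41 among all genes. The copies themselves were farther apart, at 0.734. Among the 19300 genes, Nkd2 was the 2959th nearest to Nkd1, and Nkd1 the 1141st nearest to Nkd2, so each was nearer to the other than most genes were. Relative to its own mean, Nkd2 stood at -1.60 in nkd aleurone and Nkd1 at -0.65. In B73 starchy endosperm their group means were 1.00 and 1.01, but the single libraries differed. Replicates 1, 2 and 3 stood at 1.33, 0.82 and 0.86 for Nkd2 and at 1.17, -0.055 and 1.92 for Nkd1.

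**Figure D5:**
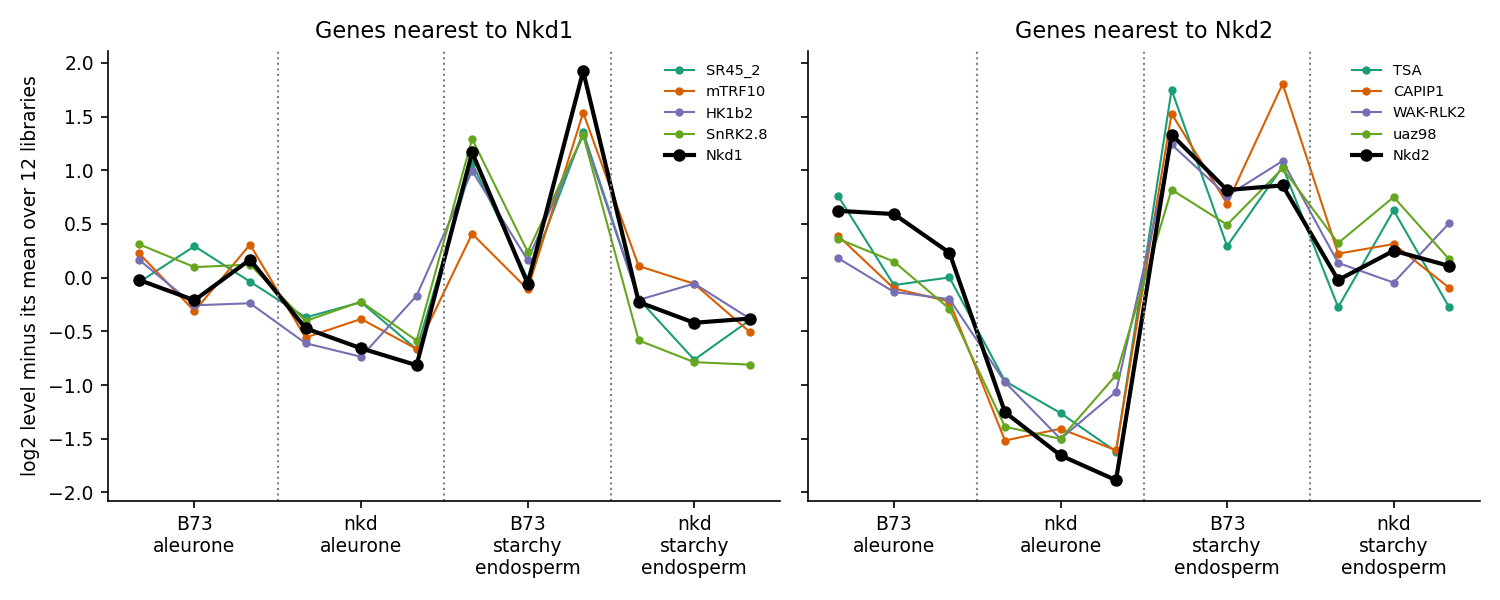
Log2 level on the common scale minus the gene's mean over 12 libraries (vertical axis) for Nkd1 and Nkd2 (black) and the 4 named genes nearest to each (colours), with libraries in order of replicate within groups along the horizontal axis. Nkd1 and its nearest genes peak in B73 starchy endosperm replicates 1 and 3, and Nkd2 and its nearest genes are lowest in nkd aleurone. The genes were picked for closeness over these same libraries, so the shared shape is not a separate result.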

How the data were processed

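The authors deposited 2 tables of signal values, normalised reads per transcript, 1 for each cell type with 6 libraries each. Per the labels' protocols, captured RNA went through a linear T7 amplification, which can shift relative levels and favours 3′ ends. FastQC, TopHat and DESeq are named in the submitters' processing notes. For versions, genome build, annotation, strand use and the treatment of reads shared by similar genes, nothing is given in the sources used here. Reads that match both Nkd copies may therefore be assigned uncertainly. In every library 100% of the deposited values were whole multiples of 1 step (tolerance 0.01), so reads were recovered. The tables were scaled separately.

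For each gene the transcript with the highest mean was kept. Genotypes were compared within a tissue with limma 3.58.1 on log2(value + 1), for genes whose mean value was 5 or more. The other comparisons used edgeR 4.0.16 (quasi-likelihood test, TMM, filterByExpr) on recovered reads. R 4.3.3, DESeq2 1.42.0 and Python 3.11.15 were also used. Tests were two-sided, and p-values were adjusted over all genes by the Benjamini-Hochberg method (threshold 0.05); SEs from edgeR were derived from its F statistic. The genes, lists, comparisons and naming rule were chosen with earlier results of these data known. The rule named both Nkd genes, up to 4 genes of each list with the highest means, and 4 named genes nearest in pattern to each copy. Gene names, and nothing else, came from the RefSeq table of Zm-B73-REFERENCE-NAM-5.0, which matched 18775 of 39656 genes. No sequence or transcript length was used here.

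The labels tie each replicate number to a flow cell, so numbers pair the libraries. Libraries of the same number deviated together little, with correlations across genes of -0.168 to 0.184 and 4 of 18 pairs above 0.1. Pairs of aleurone and starchy endosperm of the same genotype were all positive, at 0.047 to 0.184. The other pairs ranged from -0.168 to 0.155. The main fits over 12 libraries treated all libraries as independent.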

Additional observations from a re-analysis of the deposited data

Results flagged for a closer look

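The difference of the log2 ratio of Nkd1 to Nkd2 reads between nkd and B73 was 1.53 in aleurone and -0.46 in starchy endosperm, which are -1.99 apart. This comparison was added after the values had been seen. Permuting genotype labels within each tissue gave p = 0.03 (exact permutation test, two-sided), but these permutations assume no genotype effect in either tissue, so the value in aleurone alone can give a small p, and a difference between the tissues is not shown by it. With 1 library left out the distance was between -2.43, without B73 starchy endosperm replicate 2, and -1.46, without B73 starchy endosperm replicate 3, where the starchy endosperm value turned to 0.072. The interaction tests of Nkd1 and Nkd2 alone did not pass (edgeR, adjusted p = 0.723 and 0.514).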

How the results depend on the processing

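The direction of the genotype difference of Nkd1 and of Nkd2 was negative in both tissues and over both under all alternatives run, which were other pseudocounts, filters, scalings, tests, transcripts as separate features, the replicate block and each library left out. Nkd2 in aleurone stayed past the threshold throughout (log2 difference -2.31 to -1.96 with 1 library left out; limma, highest adjusted p = 0.0164), and so did its difference between tissues in nkd (1.60 to 1.95; edgeR, highest adjusted p = 0.0354). Nkd1 in starchy endosperm passed in the edgeR fit over 12 libraries, at -1.57. Over both tissues Nkd1 ranged from -1.29 to -0.83 with 1 library left out, and between tissues in B73 from 0.69 to 1.60. The ratio difference between genotypes in starchy endosperm ranged from -0.90 to 0.072 and that between tissues in B73 from -0.020 to 0.95; both turned without B73 starchy endosperm replicate 3. With the replicate number as a block, the value for Nkd2 in aleurone was -2.11 (limma, adjusted p = 0.00674) and no call of Nkd1 or Nkd2 changed. Differences that were not called turned sign with a library left out for id1 in aleurone (-0.029 without nkd replicate 1, highest 0.95) and, in starchy endosperm, for cr4 (0.15 without B73 replicate 3 and 0.21 without nkd replicate 2, lowest -0.75) and dof36 (0.045 without B73 replicate 3, lowest -0.71).

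Counts of genes called moved more. In aleurone limma called 3868 genes, 6361 transcripts when these were tested separately, and 1945 to 3724 genes with 1 library left out (1945, 2447 and 2329 without B73 replicate 1, 2 and 3), and the edgeR fit over 12 libraries called 1493. In starchy endosperm the counts were 437, 888 transcripts, 25 to 211 genes with 1 library left out (25 without B73 replicate 1, and every library lowered the count by more than 1.5 times), 215 with no filter, 1694 with DESeq2 and 1162 in the edgeR fit. Over both tissues the count of 3997 became 2581 to 4110 with 1 library left out (2581 without B73 aleurone replicate 1). Between tissues edgeR called 0 genes in B73 (DESeq2 1384; 0 to 421 with 1 library left out, 421 without starchy endosperm replicate 2) and 1797 in nkd (DESeq2 3856; 662 to 2545, with 662 and 967 without starchy endosperm replicate 1 and 2, and 1072, 709 and 1020 without aleurone replicate 1, 2 and 3). For the difference of the genotype effects it called 0 (DESeq2 198; 0 to 1). The cause of these shifts was not tested. The ratio per transcript length was not run, since no lengths were used.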
